A study of Mus musculus with 2 samples.

Results

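The regions described here are stretches of open chromatin in mouse cerebral cortex that lie between genes, 2 to 10 kb upstream of the start of the nearest protein-coding gene. A region was taken where DNase-seq peaks of both samples overlapped by at least 1 bp and were merged into 1 shared region. It had to lie more than 2000 bp from every transcription start site (TSS) in GENCODE M21 and to have its midpoint outside every gene body. Its midpoint also had to be 2 to 10 kb upstream, by strand, of the gene-level TSS of the nearest coding gene. In all, 1424 regions met this rule, which was 3.18% of the 44745 shared regions, 5.96% of the 23895 shared regions away from any TSS, and 12.2% of the 11715 of those between genes. They are called upstream regions below.

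The tissue was the left cerebral cortex of male B6CASTF1/J mice aged 2 months, a strain bred as first-generation hybrids of C57BL/6J with CAST/EiJ. There was a single group of 2 samples, biological replicates 1 and 2, which carry separate animal numbers in the labels but share 1 donor entry for the strain. Both were bulk tissue, so each value is a sum over neurons, glia, microglia and vessel cells, and more cells of a type cannot be told apart from more open chromatin per cell. Of marker genes of the cortex, the promoter had a peak in both replicates at 10 of 16 excitatory neuron, 9 of 16 inhibitory neuron, 11 of 14 astrocyte, 9 of 16 oligodendrocyte, 3 of 13 microglia and 3 of 16 vessel cell genes, and at 0 of 21 genes of other tissues. Of all 21938 coding genes, 56.2% had such a promoter peak. The shares of the inhibitory neuron and oligodendrocyte lists were near that background, and those of the microglia and vessel cell lists were below it. With 1 group of 2 samples no test over animals was possible, so values are given for each replicate and differences between classes of region are descriptions.

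DNase I cuts DNA where nucleosomes are absent, and stretches of dense cutting mark promoters, enhancers, silencers and insulators. A protein bound within such a stretch can shield a few bases from cutting, which leaves a footprint. Open regions a few kilobases before a gene are often enhancers, which in cortex bind factors of the AP-1, MEF2 and NEUROD families, or sites of CTCF, a zinc-finger protein that anchors chromatin loops.

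The sequences of 11 upstream regions are shown first because the results below return to them. They are the 5 tallest regions, which include the tallest with a CTCF motif inside footprints of both replicates, 1 region from each of 4 gene lists (Nr4a1, Neurod2, Slc1a2 and Mog), the region at Arc, and a region over a tRNA gene. Those at Nr4a1, Slc1a2 and Mog are the tallest of their list by the geometric mean of both replicates, and that at Neurod2 is the second tallest of its list, after a Camk2a region whose sequence is not shown. The regions at Arc and over the tRNA gene were chosen after their values were seen. All are from GRCm38.p6 (mm10), plus strand, up to 300 bases around the midpoint. The 5 tallest lie at chr15:73067491-73067790 (Trappc9), chr10:80159821-80160120 (Cirbp), chr8:70865591-70865890 (Kcnn1), chr10:81571641-81571860 (Tle2) and chr9:107612721-107612960 (Sema3b). The others lie at chr15:101246281-101246580 (Nr4a1), chr11:98338501-98338700 (Neurod2), chr2:102649221-102649440 (Slc1a2), chr17:37028661-37028840 (Mog), chr15:74679161-74679400 (Arc) and chr8:94704001-94704260 (Pllp). Capitals mark every match to the motifs searched, which were AP-1 in Trappc9, EGR and SP/KLF in Cirbp, EGR, NRF1 and SP/KLF in Kcnn1, CRE in Tle2, CRE and CTCF in Sema3b, and POU and EGR in Nr4a1. In the Pllp region the capitals mark the tRNA gene instead, which runs on the minus strand.
Trappc9: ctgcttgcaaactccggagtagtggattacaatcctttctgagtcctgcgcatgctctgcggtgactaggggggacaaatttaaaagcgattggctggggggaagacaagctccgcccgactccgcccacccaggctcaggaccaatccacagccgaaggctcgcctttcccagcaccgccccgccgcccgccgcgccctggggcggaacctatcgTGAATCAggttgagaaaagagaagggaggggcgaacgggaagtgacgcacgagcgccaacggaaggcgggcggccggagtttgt
Cirbp: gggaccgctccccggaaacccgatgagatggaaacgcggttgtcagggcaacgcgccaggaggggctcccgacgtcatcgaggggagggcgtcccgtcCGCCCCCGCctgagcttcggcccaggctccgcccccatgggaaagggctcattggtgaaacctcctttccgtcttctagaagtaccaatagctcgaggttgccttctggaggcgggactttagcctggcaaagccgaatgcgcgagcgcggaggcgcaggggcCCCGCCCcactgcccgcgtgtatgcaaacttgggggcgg
Kcnn1: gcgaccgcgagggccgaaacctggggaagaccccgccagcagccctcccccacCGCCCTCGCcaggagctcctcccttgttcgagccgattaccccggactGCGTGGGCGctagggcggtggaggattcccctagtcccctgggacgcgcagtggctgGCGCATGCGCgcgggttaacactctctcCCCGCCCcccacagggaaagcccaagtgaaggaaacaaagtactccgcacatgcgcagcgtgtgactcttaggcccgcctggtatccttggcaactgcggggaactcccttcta
Tle2: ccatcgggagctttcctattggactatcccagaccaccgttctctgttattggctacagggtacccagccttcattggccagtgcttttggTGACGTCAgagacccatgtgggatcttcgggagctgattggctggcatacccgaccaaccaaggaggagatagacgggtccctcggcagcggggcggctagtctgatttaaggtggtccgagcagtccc
Sema3b: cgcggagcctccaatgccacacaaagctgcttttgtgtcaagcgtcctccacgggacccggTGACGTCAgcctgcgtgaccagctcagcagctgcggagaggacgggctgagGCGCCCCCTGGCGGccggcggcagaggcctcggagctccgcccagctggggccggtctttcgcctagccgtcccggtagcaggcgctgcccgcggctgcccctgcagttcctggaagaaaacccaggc
Nr4a1: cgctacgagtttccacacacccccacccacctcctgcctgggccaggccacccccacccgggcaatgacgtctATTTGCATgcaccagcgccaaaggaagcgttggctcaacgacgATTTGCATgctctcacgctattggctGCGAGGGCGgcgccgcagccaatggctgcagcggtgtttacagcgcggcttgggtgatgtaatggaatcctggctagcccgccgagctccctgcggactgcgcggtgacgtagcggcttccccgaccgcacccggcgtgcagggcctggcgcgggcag
Neurod2: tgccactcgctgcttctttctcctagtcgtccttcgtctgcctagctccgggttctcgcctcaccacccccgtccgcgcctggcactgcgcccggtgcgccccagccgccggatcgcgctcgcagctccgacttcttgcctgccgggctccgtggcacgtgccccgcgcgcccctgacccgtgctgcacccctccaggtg
Slc1a2: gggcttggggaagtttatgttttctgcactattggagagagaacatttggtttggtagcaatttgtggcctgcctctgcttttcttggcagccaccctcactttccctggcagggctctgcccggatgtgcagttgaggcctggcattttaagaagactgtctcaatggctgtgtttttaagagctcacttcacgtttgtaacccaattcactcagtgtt
Mog: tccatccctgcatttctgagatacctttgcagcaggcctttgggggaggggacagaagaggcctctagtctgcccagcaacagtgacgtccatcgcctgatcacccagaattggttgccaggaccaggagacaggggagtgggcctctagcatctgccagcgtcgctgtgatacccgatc
Arc: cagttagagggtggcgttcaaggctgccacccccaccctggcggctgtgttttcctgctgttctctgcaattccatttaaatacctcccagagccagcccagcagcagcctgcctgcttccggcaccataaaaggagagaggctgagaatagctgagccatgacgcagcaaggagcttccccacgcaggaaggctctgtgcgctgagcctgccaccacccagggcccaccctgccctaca
Pllp: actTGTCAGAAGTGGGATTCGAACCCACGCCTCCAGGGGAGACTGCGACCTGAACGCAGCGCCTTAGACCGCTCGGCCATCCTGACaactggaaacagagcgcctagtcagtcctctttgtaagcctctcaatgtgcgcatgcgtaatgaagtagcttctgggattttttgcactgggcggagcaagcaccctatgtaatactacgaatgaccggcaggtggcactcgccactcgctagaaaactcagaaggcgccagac

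Most upstream regions were narrow single peaks of ordinary height. The median width was 220 bp, with quartiles of 184 and 240 bp, and 99.1% held 1 peak in each replicate. Peak height is the deposited signal of the tallest peak in the region. The median height was 1.22 in replicate 1 (95% interval of the median 1.17 to 1.27, n = 1424 regions) and 0.912 in replicate 2 (0.891 to 0.939). Regions 10 to 100 kb upstream, also between genes, had medians of 0.928 and 0.804. Regions inside gene bodies 2 to 10 kb downstream of the TSS had medians of 1.07 (1.04 to 1.11) and 0.885 (0.858 to 0.912). The upstream regions were thus taller than those farther upstream in both replicates, while against regions downstream in genes the intervals were apart in replicate 1 and overlapped in replicate 2. All shared regions had medians of 1.20 and 0.945. Heights ran from 0.155 to 9.29 in replicate 1 and from 0.149 to 7.51 in replicate 2, and 34 upstream regions (2.39%) were in the tallest 10% of shared regions in both replicates. That share was 0.870% farther upstream, 0.945% downstream in genes and 8.24% among all shared regions, where regions at promoters are counted.

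Upstream regions were denser than those 10 to 100 kb upstream, mostly through the steps nearest the gene. There were 15.9 upstream regions per Mb of sequence that could hold one (95% Poisson interval 15.1 to 16.8), against 13.1 per Mb at 10 to 100 kb upstream (12.7 to 13.5) and 12.3 per Mb downstream in genes (11.6 to 13.1). The density was 18.3 per Mb at 2 to 3 kb, 17.6 at 3 to 4 kb and 17.0 at 4 to 5 kb, and lay between 14.04 and 15.002 in each 1 kb step from 5 to 10 kb. Just outside the rule, at 10 to 11 kb, it was 13.3 per Mb, and the 1 kb steps from 10 to 20 kb ran from 11.4 to 15.5 per Mb. Pooled, the density was 17.7 per Mb at 2 to 5 kb (16.3 to 19.1), 14.7 at 5 to 10 kb (13.7 to 15.8) and 13.7 at 10 to 20 kb (12.9 to 14.6). The intervals of the last 2 spans overlap. The ratio of the density to that at 10 to 100 kb upstream was 1.22 (1.14 to 1.29), and with the peaks of 1 replicate alone it was 1.30 in replicate 1 and 1.04 in replicate 2. Height hardly changed with distance: the medians were 1.27 and 0.925 at 2 to 3 kb, 1.17 and 0.851 at 9 to 10 kb, and 1.08 and 0.891 at 10 to 11 kb.

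**Figure D1:**
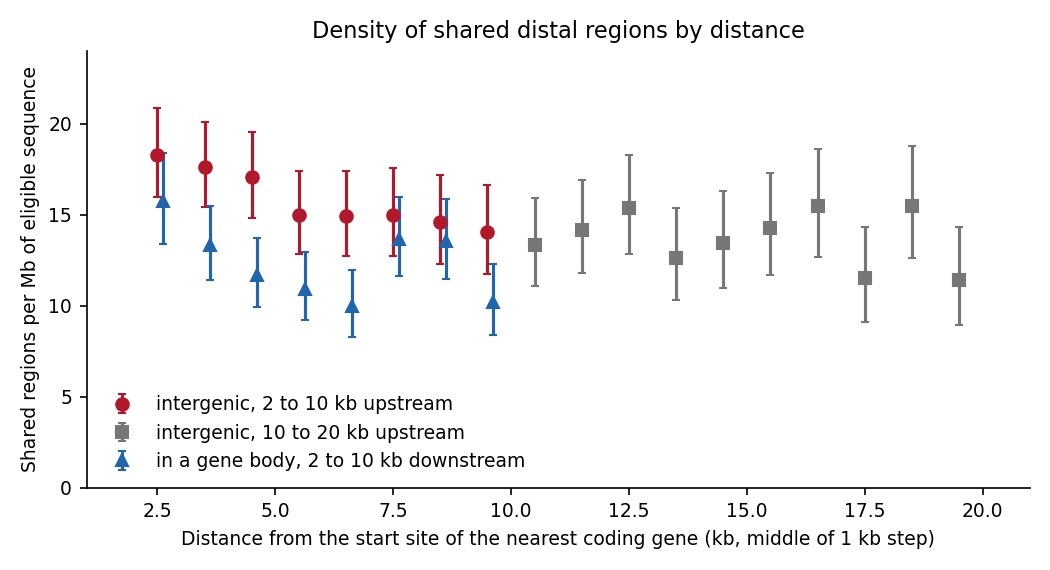
Shared regions per Mb of eligible sequence (vertical axis) in 1 kb steps of distance from the start of the nearest coding gene (horizontal axis, kb). Points are values over both replicates' shared regions and bars are exact 95% Poisson intervals. The intergenic upstream regions go from 18.3 per Mb at 2 to 3 kb to 14.04 per Mb at 9 to 10 kb, and the regions in gene bodies lie below them in every step.

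The density also varied with the chromosome and with the gene on the other side. It was highest on chromosomes 11 (24.5 per Mb) and 15 (23.5 per Mb) and lowest among autosomes on chromosome 19 (9.51 per Mb). Chromosome X, which is present in a single copy in males, had 26 upstream regions, or 5.24 per Mb, which was 0.318 of the autosome median of 16.5 per Mb. Their median heights were 0.617 and 0.621, below the medians on every autosome. No upstream region was found on chromosome Y. Between genes transcribed away from each other there were 679 upstream regions, or 18.02 per Mb (16.7 to 19.4). Where the neighbour pointed the same way as the gene there were 745, or 14.4 per Mb (13.4 to 15.5).

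The peaks at these positions were found in the other replicate more often than peaks downstream in genes, but in replicate 1 not more often than all peaks. Of the 2069 replicate 1 peaks that met the position rule on their own, 1439 (69.6%) were part of a shared region, as were 1435 of 2181 (65.8%) in replicate 2. Farther upstream the shares were 74.3% and 56.0%, downstream in genes 54.6% and 55.0%, and over all peaks 70.7% and 59.3%. The peaks found in a single replicate were lower, with medians of 0.557 in replicate 1 and 0.547 in replicate 2. Every one of the 1424 upstream regions held a base with a false discovery rate under 0.001 in both replicates. This is no separate support, since by the rule each region holds a called peak of each replicate.

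Almost all upstream regions carried footprints. A footprint was present in 98.5% of them in replicate 1, in 96.3% in replicate 2 and in both replicates in 1356 (95.2%, exact 95% interval 94.0 to 96.3), and 6 had none. The share with footprints in both was 94.2% farther upstream and 94.5% downstream in genes. The mean number was 3.12 per region in replicate 1 and 2.65 in replicate 2. Taller regions held more: when the regions were divided into 4 equal groups by geometric mean height, the means were 4.15 and 3.58 in the tallest group and 2.29 and 1.94 in the lowest.

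The tallest upstream regions were as tall as many promoters. The region 6.44 kb upstream of Trappc9, a subunit of a vesicle tethering complex, had heights of 9.27 in replicate 1 and 7.15 in replicate 2, and the gene's own promoter had 5.51 and 4.31. It held 8 and 9 footprints, but its single AP-1 match lay in none of them. The region 6.01 kb upstream of Cirbp, which encodes a cold-inducible RNA-binding protein, had heights of 8.63 and 6.87. Its EGR match lay outside footprints and its SP/KLF match inside a footprint of replicate 1 alone. The region 2.48 kb upstream of Kcnn1, a calcium-activated potassium channel, had heights of 8.59 and 6.28, against 2.10 and 0.993 at the promoter. All 5 of its motif matches, 2 of them overlapping NRF1 matches on opposite strands, lay in footprints of both replicates. RefSeq places the start of a Kcnn1 transcript within 500 bp of it, which GENCODE M21 does not hold.

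Other regions among the 12 tallest stood beside genes with a low or absent promoter peak. The region 2.81 kb upstream of Tle2, a corepressor of the Groucho family, had heights of 7.17 and 6.96, while the Tle2 promoter reached 1.16 in replicate 1 and lacked a peak in replicate 2. The CRE match in its sequence lay in footprints of both replicates. The region 7.66 kb upstream of Phf2, a histone demethylase, had heights of 8.85 and 4.63, with no peak at the Phf2 promoter in either replicate. The region 6.29 kb upstream of the GENCODE start of Zfp869, a zinc-finger gene, had heights of 4.79 and 7.51. It was the only one of the 12 that was higher in replicate 2. No peak lay at the GENCODE starts of Zfp869, but RefSeq places the start of a Zfp869 mRNA, and that of a long noncoding RNA, within 500 bp of the region.

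The remaining 6 of the 12 had a promoter peak in at least 1 replicate or a tRNA gene beneath them. The region 3.61 kb upstream of Sema3b, a secreted semaphorin that guides axons, had heights of 9.29 and 4.75, the tallest of all in replicate 1. Both its CRE and its CTCF match lay in footprints of both replicates. The region 8.22 kb upstream of Sox12, a transcription factor gene, had heights of 7.35 and 5.15. The region 2.67 kb upstream of Sos1, which activates Ras, had heights of 7.75 and 4.62. The regions near Pllp, Shf and Zfp692 lay over tRNA genes and are described with those below.

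A CTCF motif was the commonest of the 17 motifs searched in the central 200 bp of each region, on both strands. The CTCF consensus has 14 letters, and 1 mismatch was allowed. It was found in 509 upstream regions (35.7%, 33.3 to 38.3), against 29.9% farther upstream, 25.6% downstream in genes and 18.7% of all shared regions. The share did not change at the 10 kb limit, since it was 35.9% at 10 to 20 kb upstream (33.0 to 38.9, 1052 regions), a span added after the values were seen. The matches sat at the middle of the regions, with a median distance of 8 bp from the midpoint, and 97.1% of them lay within 50 bp of it. Of the 523 matches, 97.3% had their midpoint in a footprint of replicate 1, 87.8% in one of replicate 2 and 86.8% in both. The share in both was alike elsewhere, at 84.7% farther upstream, 84.7% downstream in genes and 82.4% over all shared regions. The matches in upstream regions pointed along the strand of the gene in 273 cases and against it in 250 (52.2% along, 47.8 to 56.6).

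Motifs of AP-1 and NEUROD factors had lower shares than farther upstream, and that of MEF2 did not. The AP-1 motif (TGANTCA), bound by Fos and Jun proteins, was in 158 upstream regions (11.1%, 9.51 to 12.8), against 14.5% farther upstream, 13.3% downstream in genes and 10.5% of all shared regions. At 10 to 20 kb upstream the share was 13.7% (11.7 to 15.9), an interval that overlaps that of the upstream regions. Only 8.38% of its matches in upstream regions lay in footprints of both replicates, against 4.70% over all shared regions. The NEUROD motif (CAGATGG), an E-box of neuronal basic helix-loop-helix factors, was in 114 (8.01%, 6.65 to 9.54). Its share was 11.3% farther upstream (12.2% at 10 to 20 kb, 10.3 to 14.3), 10.1% downstream in genes and 7.77% over all shared regions. In upstream regions 32.5% of its matches lay in footprints of both replicates, against 25.4% over all shared regions. The MEF2 motif, CTA and TAG with 4 bases between, was in 61 (4.28%), against 3.82% farther upstream, 2.41% downstream in genes and 2.83% of all shared regions. No motif of the 17 was found in 522 upstream regions, 1 kind in 694, and 2 or more kinds in the rest.

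SP/KLF, EGR, CRE, NRF1 and ETS motifs were less frequent than over all shared regions, which include the promoters. Their shares were at or above those farther upstream. The SP/KLF motif (GGGCGGG), of the SP and KLF zinc-finger families, was in 103 upstream regions (7.23%), against 5.73% farther upstream and 17.6% of all shared regions. The EGR motif (GCGNGGGCG), bound by the immediate early factors Egr1 to Egr4, was in 18 (1.26%), against 0.797% farther upstream and 3.97% of all shared regions. Those 18 were tall, with medians of 4.14 and 2.17, and 68.2% of their matches lay in footprints of both replicates, against 52.6% over all shared regions. The RFX motif, GTTNCC and GGNAAC with 2 bases between, was in 16 (1.12% against 0.896% of all shared regions), with 12 of 16 matches in footprints of both. The CRE motif (TGACGTCA), bound by CREB, was in 15 (1.05%), against 0.628% farther upstream and 1.55% of all shared regions. The POU motif (ATGCAAAT) was also in 15 (1.05%), below its shares of 1.47% farther upstream and 1.27% of all shared regions. The NRF1 motif (GCGCATGCG) was in 8 (0.562%), against 0.435% farther upstream and 1.41% of all shared regions. The ETS motif (CCGGAAGT) was in 8 (0.562%), against 0.242% farther upstream and 2.34% of all shared regions. The remaining motifs are set against all shared regions. The TEAD motif (GGAATGT) was in 38 (2.67% against 2.49%), the SOX motif (ACAATGG) in 35 (2.46% against 1.85%) and the PU.1 motif (GAGGAAGT), of the microglial factor, in 22 (1.54% against 1.55%). The T-box motif (AGGTGTGA) was in 10 (0.702% against 0.673%), the ROR motif (AAAGGTCA) in 2 and the NFI motif, TTGGC and GCCAA with 5 bases between, in 1. A match is a run of letters and not a measured binding site.

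**Figure D2:**
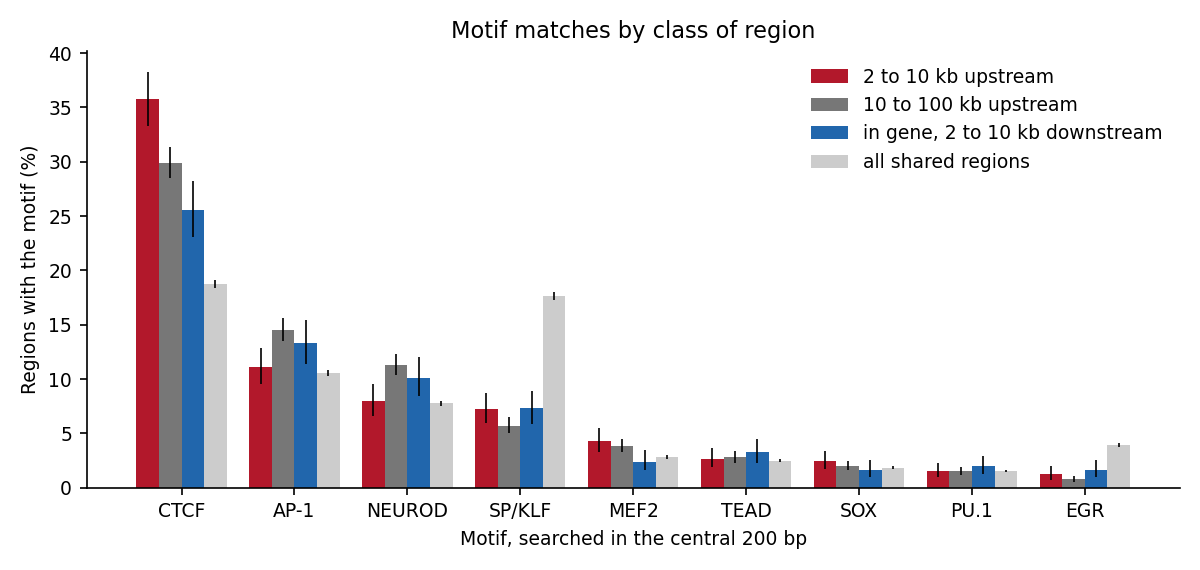
Share of regions with a motif match in the central 200 bp (vertical axis, %) for the 9 motifs most frequent in the upstream regions, in upstream regions, regions 10 to 100 kb upstream, regions in gene bodies 2 to 10 kb downstream and all shared regions. Lines are exact 95% binomial intervals. Of the 4 classes drawn, CTCF is most frequent in the upstream regions, at 35.7%, and SP/KLF is higher in all shared regions, at 17.6%, than in any of the other classes.

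Most upstream regions were not rich in CpG. The median GC content of the central 200 bp was 51.5%, and 54.5% over all shared regions. The ratio of observed to expected CpG had a median of 0.290, against 0.297 farther upstream and 0.413 over all shared regions. It exceeded 0.6 in 209 upstream regions (14.7%, 12.9 to 16.6), against 10.6% farther upstream, 12.8% downstream in genes and 34.3% of all shared regions. Those 209 were taller, with medians of 2.02 and 1.26 against 1.15 and 0.885 in the other 1215. No repeat base was present in 48.8% of the windows, against 49.9% farther upstream and 54.7% over all shared regions. Windows over 50% repeat made up 1.83%, against 1.09% farther upstream and 1.03% over all shared regions.

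The replicates differed in height in a way that went with the motif. The median log2 ratio, replicate 1 over replicate 2, was 0.47 over upstream regions (0.44 to 0.50, SD 0.55) and 0.46 over all shared regions, and 1095 upstream regions (76.9%) were higher in replicate 1. How heights were scaled in each replicate is not known, so a ratio is best read against the others and not against 0. More than 2-fold higher in replicate 1 were 164 (11.5%), against a background of 14.5% of all shared regions. More than 2-fold higher in replicate 2 were 16 (1.12%), against a background of 1.89%. Neither share exceeded its background.

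Upstream regions with a CTCF match had a median ratio of 0.70, and 95.3% of them were higher in replicate 1. Their median heights were 1.42 and 0.864, against 1.09 and 0.939 in the regions without a match, whose median ratio was 0.29. The 190 regions with a perfect match had a median ratio of 0.74 and the 319 with 1 mismatch 0.67. AP-1 regions stood at the other end, with a median ratio of -0.01 and 50% higher in replicate 1, against 0.51 without the motif. NEUROD regions had 0.13, against 0.49 without. MEF2 regions differed little, at 0.42 against 0.48 without. The 223 regions with AP-1, NEUROD or MEF2 and no CTCF match had a median of -0.11, and the 692 with none of the 4 motifs had 0.38. These groups of motifs were formed after the values were seen. The order was alike farther upstream, where CTCF regions had 0.67 against 0.04 without and AP-1 regions -0.14 against 0.34, and downstream in genes, at 0.68 against 0.19 and 0.04 against 0.37. Each replicate is 1 animal and 1 library, so animal and library cannot be told apart.

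**Figure D3:**
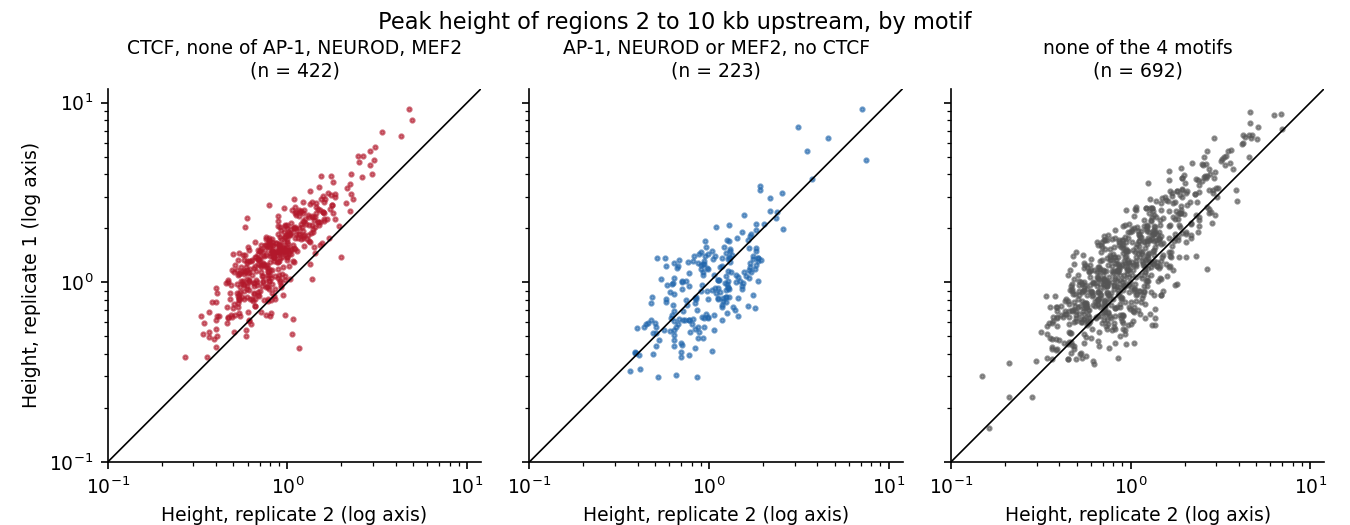
Height in replicate 1 (vertical log axis) against height in replicate 2 (horizontal log axis), each point 1 upstream region, in 3 groups by motif. The line marks equal heights. Points of the 422 regions with CTCF alone among the 4 motifs lie mostly above it, with a median log2 ratio of 0.70, and the 223 with AP-1, NEUROD or MEF2 and no CTCF lie around it, at -0.11.

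The largest differences between the replicates, among regions above the median height, were each beyond 1 unit of log2 except at Dusp14. Higher in replicate 1 were the regions 5.33 kb upstream of Sh2b3, an adaptor of cytokine signalling (2.27 and 0.594), and 5.47 kb upstream of the cyclin-dependent kinase inhibitor gene Cdkn1c (2.03 and 0.581). The region 5.03 kb upstream of Aen, a nuclease gene, had 2.68 and 0.790, that of Dus3l, a dihydrouridine synthase gene, 3.58 and 1.24, and that of Smbd1 1.84 and 0.641. A CTCF match was present in 4 of these 5, all but Dus3l. Higher in replicate 2 were regions near Egr1 (0.717 and 1.80), Cobl, an actin nucleator gene (1.18 and 2.68), and Slc35f6 (0.743 and 1.65). The others were near Rasl10a (0.846 and 1.75) and the phosphatase gene Dusp14 (0.984 and 1.82). No CTCF match was present in these 5, and the regions near Egr1 and Rasl10a had a NEUROD match.

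The upstream regions had 1248 distinct nearest coding genes, 5.69% of the 21938 coding genes and 8.26% of the 15116 with eligible sequence. Of the 1248 genes, 1100 had 1 upstream region, 126 had 2, 18 had 3 and 4 had more. Promoters counted as accessible had a peak of both replicates within 500 bp of any TSS of the gene. That held for 770 of the 1248 genes (61.7%, 58.9 to 64.4), against a background of 56.2% of all coding genes and 7736 of the 15116 with eligible sequence. Counted by region, it held for 870 of 1424 (61.1%), against 68.0% farther upstream and 62.9% downstream in genes. The gene had no promoter peak in either replicate for 417 upstream regions (29.3%) and a peak in a single replicate for 137. Per Mb of eligible sequence there were 19.2 upstream regions at genes with an accessible promoter (17.9 to 20.5) and 12.6 at the others (11.6 to 13.7). For 191 upstream regions another annotated TSS lay nearer than that of the coding gene.

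Most upstream regions were lower than the promoter they preceded. Of the 870 beside an accessible promoter, 657 (75.5%) were lower than it in both replicates, 105 (12.1%) were taller in both and 108 differed between replicates. The median ratio of region to promoter height was 0.378 in replicate 1 and 0.532 in replicate 2. Accessible promoters were more frequent beside taller regions, at 45.2% in the lowest of the 4 height groups, 60.4% and 68.0% in the next 2 and 70.8% in the tallest.

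Activity-regulated genes, whose transcription rises within minutes to hours of neuronal firing, had upstream regions at 7 of 26 genes (26.9%, against 5.69% of all coding genes). There were 10 regions with medians of 1.94 and 1.89, at 67.4 per Mb of eligible sequence (32.3 to 124), against 19.2 per Mb at all genes with an accessible promoter. Other lists also lay above 19.2 per Mb, with wide intervals: 82.9 per Mb at housekeeping genes (26.9 to 194), 69.6 at microglia genes (18.95 to 178), 55.02 at excitatory neuron genes (15.0 to 141), 52.6 at astrocyte genes (10.9 to 154), 46.3 at inhibitory neuron genes (12.6 to 119) and 42.9 at vessel cell genes (11.7 to 110). These intervals overlap each other, and all but that of the housekeeping genes reach below 19.2. Few microglia and vessel cell genes had an accessible promoter (3 of 13 and 3 of 16), so 19.2 is an unlike reference for them. At all coding genes the density was 15.9 per Mb, which the microglia interval does not reach and the vessel cell interval does. Nr4a1, a nuclear receptor gene, had the tallest, 7.84 kb upstream, at 5.86 and 4.17. Its EGR match lay in a footprint of replicate 2 and its 2 POU matches in none. Egr3, an early growth response factor gene, had 1 region at 2.19 kb with 4.11 and 2.94 and a lower one at 2.60 kb with 1.05 and 0.486. The region 6.71 kb upstream of Arc, which encodes a synaptic capsid-like protein, had 2.39 and 1.99 with 6 and 3 footprints, below the Arc promoter at 6.58 and 3.77. The printed Arc stretch held none of the motifs searched.

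Egr1, another of these transcription factor genes, had 3 upstream regions. They had 1.77 and 2.17 at 4.42 kb, 0.717 and 1.80 at 7.89 kb, and 2.35 and 1.38 at 9.51 kb. The last, which had a CTCF match, was higher in replicate 1, and the others were higher in replicate 2. The region near Btg2, an antiproliferative factor gene, had 2.12 and 2.18, that near Nptx2, a secreted pentraxin of synapses, 1.36 and 1.76, and that near Fos, an AP-1 subunit gene, 1.04 and 1.12. In all, 5 of the 10 regions were higher in replicate 1 and 5 in replicate 2, while 76.9% of all upstream regions were higher in replicate 1. All 10 stood beside an accessible promoter, and the promoters of all 26 genes of the list were accessible.

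Oligodendrocyte genes had the largest share of genes with an upstream region among the 11 lists, 7 of 16 (43.8%), against 5.69% of all coding genes. Their density was 99.9 per Mb (40.1 to 206), against 15.9 per Mb at all coding genes. That interval overlaps those of every other list with an upstream region, so the list is not set apart from them. The medians of the 7 regions were 1.48 and 0.912. The region 5.35 kb upstream of Mog, a surface protein of myelin, had 4.96 and 3.32, and the Mog promoter itself had 0.384 and 0.513. The printed Mog stretch held no motif of the 17, though 5 and 4 footprints crossed the region. The region near Cldn11, a myelin tight junction gene, had 1.77 and 1.46, that near Mbp, myelin basic protein, 1.48 and 1.63, and that near Mobp, another myelin protein, 1.57 and 0.912. The transcription factor genes Olig1 (1.04 and 0.878) and Myrf (0.885 and 0.601) had the lowest.

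Excitatory neuron genes had upstream regions at 3 of 16 (18.8%, against 5.69% of all coding genes): Neurod2, a bHLH factor gene, with 2.51 and 1.34 at 8.95 kb, Bcl11b, a deep layer factor gene, with 1.79 and 0.932, and Camk2a, a synaptic kinase, with 1.90 and 2.04 at 6.52 kb and 1.25 and 1.04 at 3.45 kb. The Neurod2 region was the most GC-rich of these, at 72.0%. Inhibitory neuron genes also had them at 3 of 16. Sst, the somatostatin gene, had 2.31 and 1.32 at 8.09 kb and 1.58 and 0.999 at 7.46 kb, and Vip, a neuropeptide gene, had 0.652 and 0.547. All 4 inhibitory neuron regions held a CTCF match, and the promoters of Sst and Vip had no peak. The ion channel list had 1 of 16 genes, Kcnc1, a fast potassium channel, with 2.27 and 1.25. The postsynapse list had 0 of 16, of which 13 had eligible sequence. The upper limit of its density, 38.8 per Mb, lies above the 19.2 per Mb of genes with an accessible promoter, so a lower density was not detectable.

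Glial and vessel lists were as follows. Astrocyte genes had upstream regions at 3 of 14 (21.4%): Slc1a2, the main glutamate transporter, with 1.23 and 1.40, Gja1, connexin 43 of gap junctions, with 1.22 and 0.669, and the neurotensin receptor gene Ntsr2, with 0.790 and 0.648. Microglia genes had them at 3 of 13 (23.1%). The receptor genes Trem2 (1.58 and 0.804) and Cx3cr1 (1.34 and 0.770) had no promoter peak in either replicate. Vessel cell genes had them at 3 of 16: Foxc1, a factor of mural cells and meninges, with 2.53 and 0.945, Slc2a1, the glucose transporter of brain endothelium, with 1.17 and 0.702 at 2.80 kb and 0.807 and 0.885 at 6.10 kb, and the collagen gene Col1a1, with 0.704 and 0.486.

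Of 14 housekeeping genes, 3 had upstream regions (21.4%). Ppia, cyclophilin A, had 1.80 and 0.972 at 3.56 kb and 0.958 and 0.837 at 8.995 kb, and the ribosomal protein gene Rplp0 had 1.12 and 0.932. The list of genes of other tissues had 0 of 21, and none of their promoters was accessible. Over all lists there were 42 upstream regions, with medians of 1.53 and 1.08. Of these, 32 were higher in replicate 1, a share near the 76.9% of all upstream regions. Each list has few genes, and the intervals given cover counting error only.

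**Figure D4:**
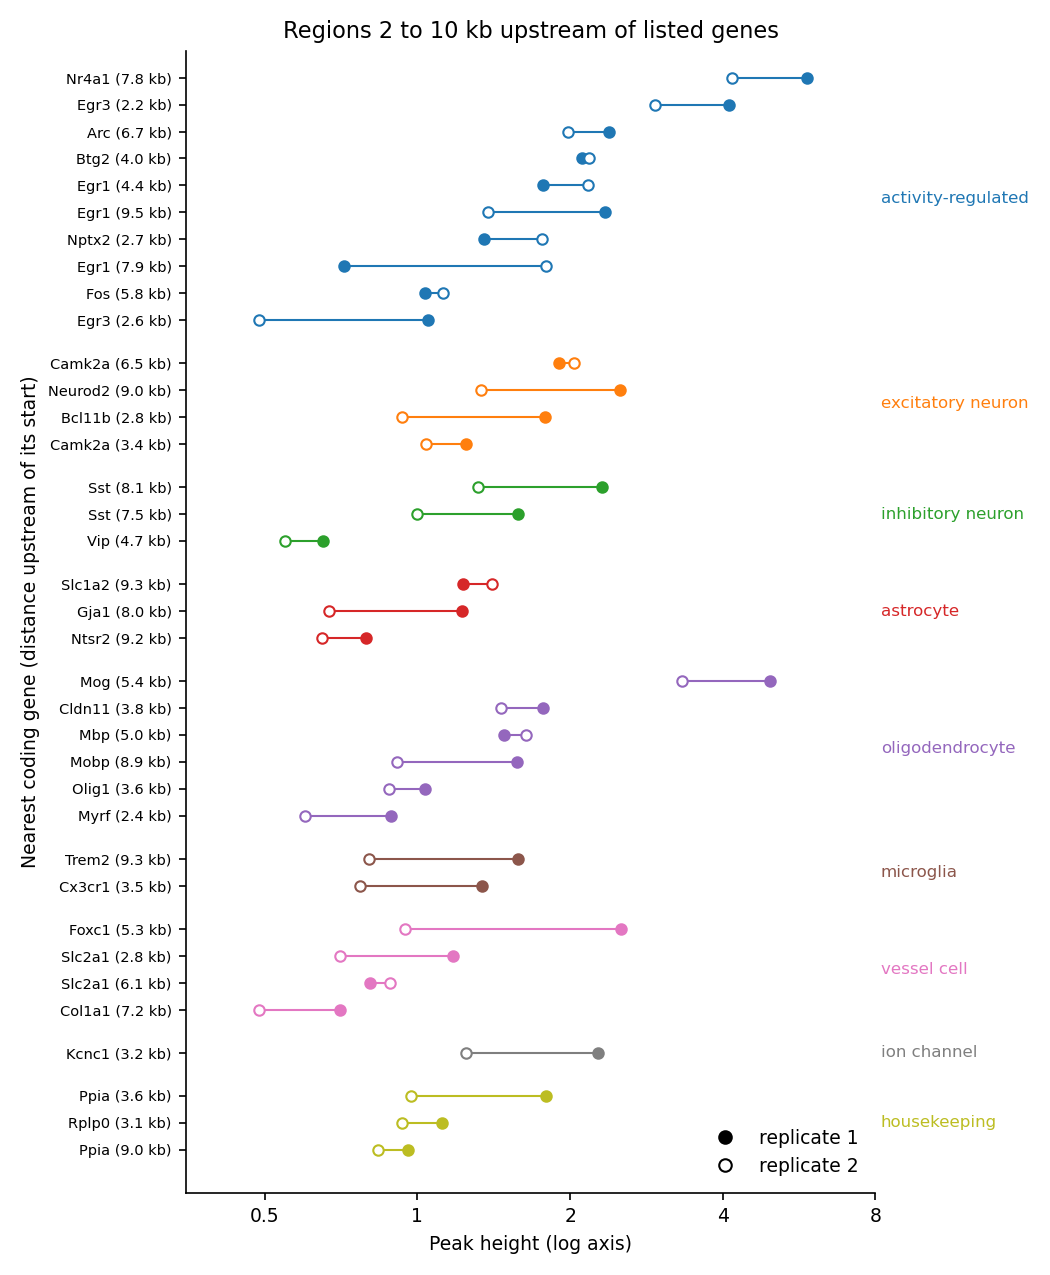
Peak height (horizontal log axis) of 36 of the 42 upstream regions at listed genes, with its distance upstream in kb, grouped by list. Filled circles are replicate 1 and open circles replicate 2. Of those drawn, the regions near Nr4a1, Mog and Egr3 are the tallest, at 5.86, 4.96 and 4.11 in replicate 1.

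Some of the tallest upstream regions lay over tRNA genes, which RNA polymerase III transcribes from promoter elements inside the gene. The main GENCODE M21 annotation holds no tRNA genes, so the rule did not remove these regions. RefSeq tRNA genes, looked up after the values were seen, underlay 40 upstream regions (2.81%, 2.01 to 3.81), against 0.894% farther upstream, 0.0859% downstream in genes and 0.303% of the other distal regions. Their median heights were 2.55 and 1.75, against 1.21 and 0.905 in the other 1384, and their median CpG ratio was 0.829 against 0.282. Regions over tRNA genes elsewhere were alike. Farther upstream they had 2.39 and 1.72 with a CpG ratio of 0.823, and among the other distal regions 2.56 and 2.00 with 0.777. Among the 100 tallest upstream regions 15 lay over a tRNA gene. Footprints of both replicates were present in 39 of the 40 upstream regions over a tRNA gene, near the 95.2% of all upstream regions. Also 39 of the 40 were higher in replicate 1, against 76.9% of all upstream regions.

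These regions lay in clusters. The 40 regions overlapped 41 tRNA genes of 15 kinds, 38 of them wholly inside a region, with tRNA-Leu the most frequent at 7. The regions lay near 23 coding genes, and 12 of the 40 were on chromosome 11 and 10 on chromosome 13. The region near Pllp, a myelin membrane protein gene, covered a tRNA-Leu gene 7.85 kb upstream, with 7.97 and 4.92. The region 8.32 kb upstream of Shf, an SH2 adaptor gene, covered a tRNA-His gene, with 6.28 and 5.04. The region 4.48 kb upstream of the zinc-finger gene Zfp692 covered a tRNA-Leu gene, with 6.58 and 4.72. Aurkb, a mitotic kinase gene, had 5 upstream regions, the most of any gene together with Rnase12, and all 5 covered a tRNA gene (tRNA-Ser, -Thr, -Pro, -Asp and -Trp). The tallest of them, over tRNA-Trp, had 4.62 and 3.57. Of the regions of Rnase12, 3 of 5 overlapped a tRNA gene, as did 3 of 4 at Trim27 and 2 of 4 at Pllp.

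Copies of tRNA genes are alike, and reads from them can be hard to place. In these 40 regions between 4.63% and 44.8% of the 25-base words occurred more than once in the genome. Only 16 of the 1424 upstream regions had 50% or more such words. Among all upstream regions 59 (4.14%) lay within 500 bp of a RefSeq transcript start that GENCODE M21 does not hold, with medians of 1.75 and 1.21. The share was alike farther upstream (3.99%) and was 3.09% downstream in genes.

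**Figure D5:**
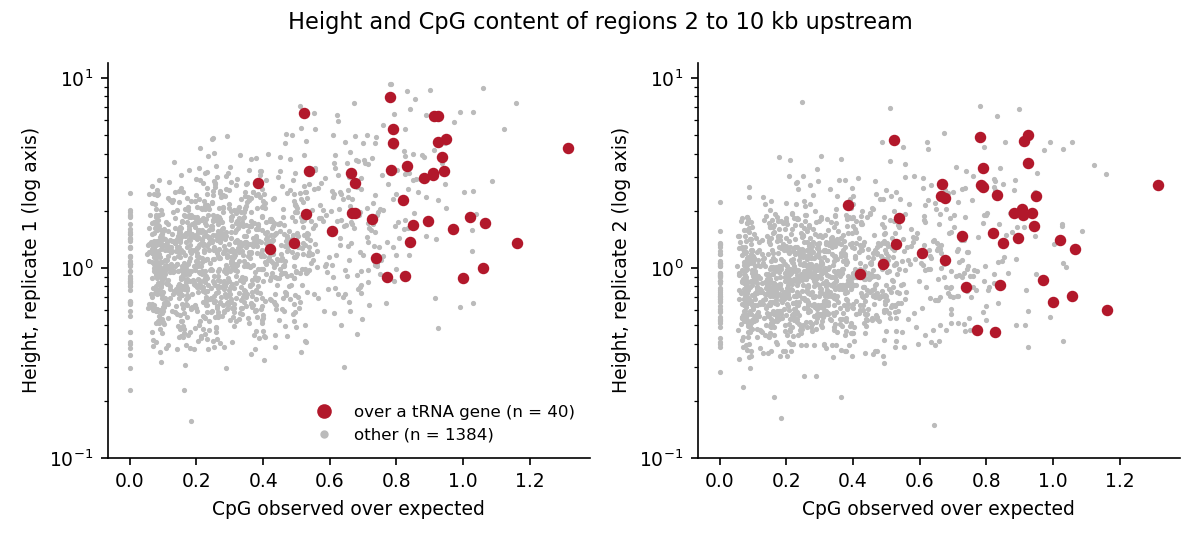
Height in replicate 1 (left panel) and replicate 2 (right panel), both on log axes, against the ratio of observed to expected CpG in the central 200 bp, each point 1 upstream region. Red points are the 40 regions over a RefSeq tRNA gene, with medians of 2.55 and 1.75, and grey points the other 1384, with 1.21 and 0.905.

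RefSeq functional elements overlapped 5 upstream regions (0.351%, 0.114 to 0.817), in each case an enhancer with a record from the VISTA transgenic assay. Elements of any kind overlapped 0.870% of regions farther upstream, 0.344% downstream in genes and 0.664% of the other distal regions. The share in upstream regions was thus not above that of like regions farther upstream. The 5 included those near Nacc2, a transcription factor gene (3.44 and 1.91), Gng2, a G protein subunit gene (2.07 and 1.67), and Pmpcb, a mitochondrial protease subunit gene (1.23 and 1.45).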

How the data were processed

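DNase-seq peaks, footprints and false discovery rates of 2 samples were used as deposited, on mm10 per the file notes. Peak height is a signal derived by the authors from each replicate's filtered alignment. The deposited FDR, a kind of adjusted p-value, is given per stretch of bases. Deposited footprints were used as positions. For the aligner, callers, scaling and any correction for cutting preference, nothing is given in the sources used here. Depth is unknown, since no file gives reads. Of each replicate's 2 peak lists the shorter was used (63928 and 76440 peaks after joining overlaps, 280338 and 245020 footprints). Python 3.11.15, pandas 2.3.3, scipy 1.17.1 and pysam 0.24.0 were used, with steps tested on simulated data. Eligible sequence was counted on a 100 bp grid. Intervals are exact 95% intervals and cover counting error only. Neighbouring regions are not independent.

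The regions named were the 12 tallest, up to 3 tallest per gene list, the genes with most regions and the 5 largest height ratios in each direction. Other members of the lists were named after their values were seen. The members, lists and motifs were chosen with earlier results of these data known. The RefSeq lookup, the motif groups, the CTCF position counts and the spans of distance were added after seeing the data. Some listed genes are counted but not reported here by name.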

Additional observations from a re-analysis of the deposited data

How the results depend on the processing

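Of 87 values under 13 settings, 51 stayed within the 95% interval of the reported value (or within 1.5 times the reported count) and none changed sign. The longer peak lists gave 2325 upstream regions with median heights of 0.855 and 0.709, a log2 ratio of 0.37, footprints of both replicates in 85.6%, a CTCF motif in 29.8%, GC of 51.0% and accessible promoters for 67.4%. The taller 50% of each list gave 842 regions with 1.65 and 1.19, a log2 ratio of 0.54, footprints in 98.5%, CTCF in 39.9%, GC of 53.0% and a density ratio to 10 to 100 kb upstream of 1.66. Leaving out the lowest 25% of heights in either replicate gave 924 regions with 1.57 and 1.14, a log2 ratio of 0.52, footprints in 98.4%, CTCF in 38.5%, GC of 52.5% and accessible promoters for 67.4%. A promoter of 2000 bp on both sides gave accessible promoters for 66.1%. With 1 replicate left out, counts by the peaks of the other alone ran from 2069 to 2181, footprints in that replicate from 89.6% to 90.4%, CTCF from 26.5% to 31.3%, GC from 50% to 52.0%, accessible promoters from 61.6% to 70.8% and the density ratio from 1.04 to 1.30. The median height was then 0.971 in replicate 1 and 0.750 in replicate 2. The cause of these shifts was not tested. A 50% overlap, transcript-level start sites, a gap of 3 kb, leaving out multi-copy regions, the whole region as window, footprints wholly inside and, added after seeing the data, leaving out regions over tRNA genes kept every value computed within those limits. The density ratio was not run for the 3 settings that leave out single regions. No paired analysis was possible because there was 1 group. Depth is unknown, so what it limits cannot be stated.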
